A study of Mus musculus with 24 samples.

Results

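The 3 Period genes (Per1, Per2, Per3) and the 2 cryptochrome genes (Cry1, Cry2) encode the repressor proteins of the circadian clock, and their transcripts are described here in mouse inguinal fat, a depot under the skin. They were taken by name, each had 1 probe set on the array, and they make up 5 of the 19938 genes measured. The knockout mice (Ad-Bmal1-/-) carried aP2-Cre+/- together with Bmal1fx/fx, and the control mice carried Bmal1fx/fx alone, so the floxed alleles were common to both genotypes and the Cre transgene was present in the knockout mice only. Each genotype was sampled at circadian times CT0 (subjective dawn), CT6, CT12 and CT18, with 3 biological replicates per group and 24 arrays in all. The mice had been crossed to C57BL/6J for 6 generations or more, ate chow, spent 36 h in constant darkness before collection began and were fasted for 24 h. The animals' ages are not stated in the labels. The aP2 promoter drives Cre in adipocytes, and the other cells of the pad were part of every sample. Whether Cre also acted in those other cells was not tested. Values are log2 expression from Affymetrix arrays normalised by RMA, and levels were compared within a gene, not between probe sets.

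BMAL1, encoded by Arntl, pairs with CLOCK and switches on the Period and cryptochrome genes through E-box sequences. PER and CRY proteins accumulate, enter the nucleus together and repress BMAL1 and CLOCK, which closes the negative feedback loop. The same genes also read D-boxes, bound by DBP, TEF and HLF and by the repressor NFIL3, while Per1 and Per2 respond to glucocorticoids and to CREB as well.

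Stretches of the promoters that hold E-boxes or D-boxes are shown, since these are the letters through which the Arntl and Dbp proteins are known to act. RefSeq promoter sequences (GRCm38.p6) matched 4 of the 5 genes, in 5 windows, and Per2 is named only. The 250 bases before the start were searched on both strands for the E-box CACGTG, the E'-box CACGTT, the D-box TTATGNAA, AGGTCA and TGACG. Capitals mark the E-box, E'-box or D-box, and AACGTG is the E'-box on the other strand.
Cry1: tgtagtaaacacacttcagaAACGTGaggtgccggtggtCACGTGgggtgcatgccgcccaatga
Cry2: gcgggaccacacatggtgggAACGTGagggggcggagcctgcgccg
Per1: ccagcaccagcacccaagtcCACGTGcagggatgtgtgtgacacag
Per1: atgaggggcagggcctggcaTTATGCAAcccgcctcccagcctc
Per3: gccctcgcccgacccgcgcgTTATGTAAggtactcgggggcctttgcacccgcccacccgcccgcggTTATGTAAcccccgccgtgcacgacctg
The Cry1 stretch is chr10:85185089-85185153 on the minus strand, the Cry2 stretch chr2:92434210-92434255 on the minus strand, and the Per3 stretch chr4:151044796-151044890 on the minus strand. The Per1 stretches are chr11:69098763-69098808 and chr11:69098905-69098948, both on the plus strand. All lie upstream of the annotated start of the gene.

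Cry1 held an E'-box and an E-box in 1 stretch, Cry2 held an E'-box, Per1 held an E-box and a D-box, and Per3 held a pair of identical D-boxes and none of the other motifs searched. Among all 32851 promoter windows, 6.02% held the E-box, 3.85% the E'-box and 3.07% the D-box. AGGTCA, a half-site of REV-ERB and ROR receptors, was present in 1 of the 5 windows, against 14.0% of all windows. TGACG, a half-site of CREB, was present in 4 of the 5, against 17.8%. A match describes the letters in these windows only.

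Arntl, the targeted gene, averaged 7.43, 6.95, 6.74 and 7.26 at CT0, CT6, CT12 and CT18 in knockout fat, against 7.97, 6.73, 6.34 and 7.32 in control fat. The position of its probe set relative to the deleted exons is not given in the labels, so these values do not check the deletion. Adipocyte markers averaged 9.75 to 10.5 on the knockout arrays and 10.1 to 10.6 on the control arrays, whose median gene lay between 6.46 and 6.56. Replicate 2 of knockout CT0 had the lowest adipocyte average, 9.75, and the highest epithelial one, 7.03, against 6.00 to 6.46 on the other 23 arrays. A further 4 arrays stood apart, replicate 1 at CT12 and replicate 3 at CT18 of both genotypes. They lay toward the other genotype for genes that separated knockout from control fat earlier in the day, the control arrays only slightly. For 188 genes whose knockout and control arrays did not overlap, in the same direction, at both CT0 and CT6, these arrays fell on the side of their own label for 25.0% and 31.4% of the genes in knockout fat and 43.1% and 45.2% in control fat, against 61.2% to 79.8% on the other 8 arrays of CT12 and CT18. Values are therefore given with all 24 arrays and, where these 4 arrays decide a call, with the other 20. The 4 arrays were picked by genes that differ with genotype, so leaving them out widens genotype differences by construction. In each pair both arrays carry the same replicate number, and whether labels were exchanged was not tested, so every genotype value at CT12 and CT18 rests on the labels as given. In whole fat, fewer cells of a type and less RNA per cell cannot be told apart. The limma p-values set each difference against the spread between biological replicates, pooled over all 8 groups and moderated over all genes.

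Across the day, Per3 changed in both genotypes, with its highest mean at CT12 and its lowest at CT0. Per2 also had its highest mean at CT12 and its lowest at CT0 in both genotypes, and Cry1 its highest at CT18 and its lowest at CT6. Between genotypes, Cry1 had the highest of the 5 differences, 0.26 ± 0.06 (log2, knockout minus control, mean of the 4 times ± SE), and Per3 the lowest, -0.27 ± 0.08. By limma with Benjamini-Hochberg adjustment over all genes, 0 of the 5 genes passed the threshold of 0.05 for this mean difference, where 4 of 19938 genes (0.0201%) passed.

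**Figure D1:**
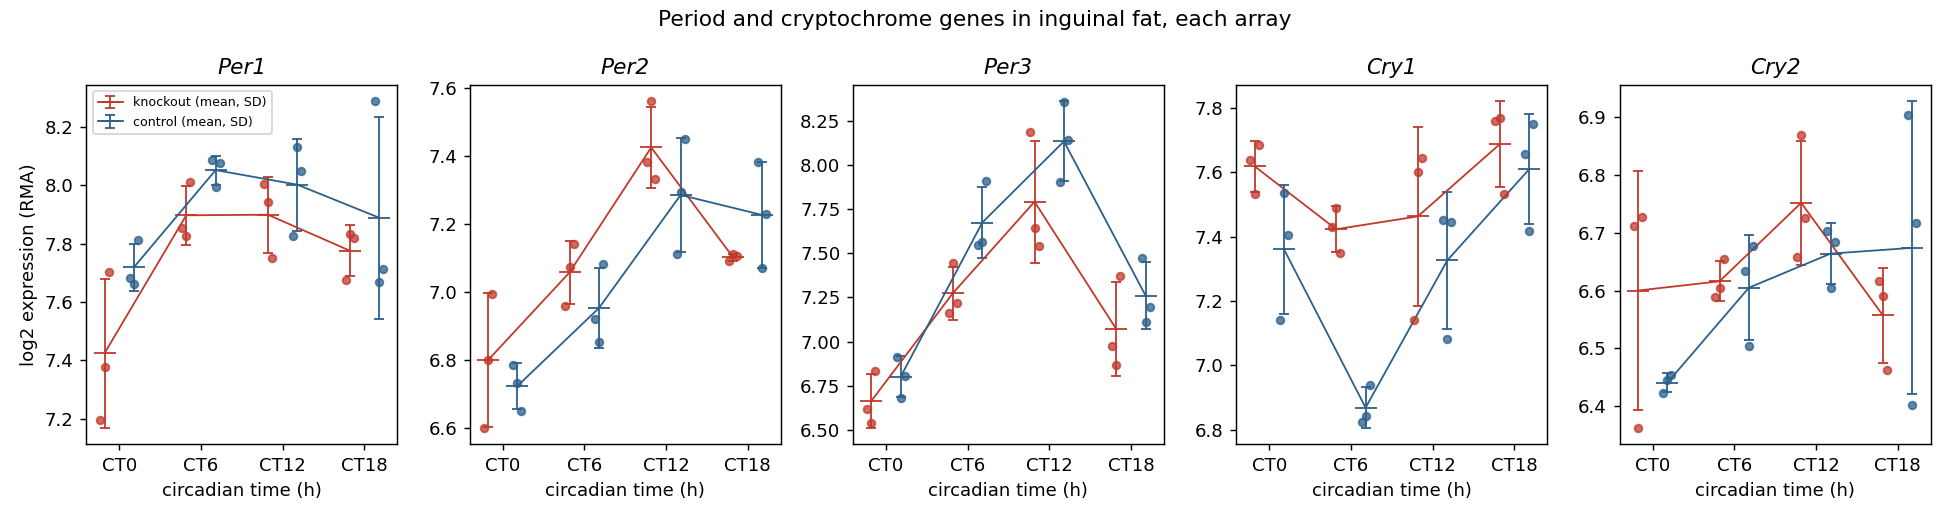
Log2 expression (RMA) of Per1, Per2, Per3, Cry1 and Cry2 on each array by circadian time (h), knockout to the left of control, with points for the 3 arrays of a group and the group mean ± SD. At CT6 the 3 knockout arrays of Cry1 sit between 7.35 and 7.49, above all control arrays, and those of Per3 between 7.16 and 7.45, below all control arrays.

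Per3, the Period gene thought to be least needed for the core oscillator, varied most over the day. At CT0 it read 6.62, 6.54 and 6.83 in knockout fat, against 6.91, 6.68 and 6.80 in control fat. At CT6 it read 7.16, 7.45 and 7.22 in knockout fat, against 7.55, 7.57 and 7.91 in control fat. The genotypes overlapped at CT0, while at CT6 every knockout array lay below every control array, as it did for 6.27% of all genes. At CT12 Per3 read 8.19, 7.65 and 7.54 in knockout fat, against 7.90, 8.36 and 8.14 in control fat. At CT18 it read 6.98, 6.87 and 7.37 in knockout fat, against 7.47, 7.11 and 7.19 in control fat. The genotypes overlapped at both later times, and the knockout arrays that came highest, replicate 1 at CT12 and replicate 3 at CT18, belong to the 4 arrays described above. Over all genes, the knockout arrays all lay above the control arrays for 6.28%, 5.01%, 2.97% and 4.33% at CT0, CT6, CT12 and CT18, and all below them for 4.47%, 6.27%, 5.12% and 4.25%.

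The change of Per3 over time passed the F test in knockout fat (limma adjusted p = 0.0200) and in control fat (limma adjusted p = 0.00181). It was the only one of the 5 genes to pass in either genotype, where 0.0702% of all genes passed in knockout fat and 0.0602% in control fat. From CT0 to CT12 Per3 rose by 1.13 ± 0.16 in knockout fat (2.19-fold, limma adjusted p = 0.00609) and by 1.33 ± 0.16 in control fat (2.52-fold, limma adjusted p = 0.000547). It ranked second of all 19938 genes by p for this rise in each genotype. The knockout rise missed the threshold without knockout CT0 replicate 1 or CT12 replicate 1 (adjusted p = 0.0617 and 0.0615). Markers of other cells also differed between these times in knockout fat, none of them past the threshold. The 6 smooth muscle markers all had negative CT12 minus CT0 differences there (median -1.03, from -0.14 for Rgs5 to -2.04 ± 0.42 for Cnn1, adjusted p = 0.0745 for Cnn1), against 5 of 6 negative in control fat (median -0.17). Their average was 8.56 to 8.85 at CT12 and 9.41 to 10.2 at CT0 in knockout fat, and 9.09 on each array at CT12 and 8.60 to 10.1 at CT0 in control fat. The 8 macrophage markers all had positive differences in knockout fat (median 0.50), against 4 of 8 in control fat (median -0.00), with averages of 8.49 to 8.80 at CT12 and 7.60 to 8.48 at CT0 in knockout fat, and 8.36 to 8.54 at CT12 and 8.11 to 8.56 at CT0 in control fat. Knockout CT0 replicate 2, the array with the low adipocyte average, had the 7.60 for macrophage and the 10.2 for smooth muscle markers. Replicates 1 and 3 of that group had 8.305 and 8.482 for macrophage and 9.688 and 9.409 for smooth muscle markers. None of these 14 genes passed in either genotype. Epithelial markers were negative for 6 of 8 genes in knockout fat (median -0.27) and 4 of 8 in control fat (median -0.02). Lymphocyte markers were negative for 7 of 7 in both genotypes (median -0.145 in knockout fat and -0.151 in control fat). None of the epithelial or lymphocyte markers passed. The part of all these markers in the knockout rises of Per3 and Per2 was not tested. Between genotypes, the rises of Per3 differed by -0.20 ± 0.23 (knockout minus control, limma adjusted p = 1), which did not pass. The F test in knockout fat missed the threshold on the 20 arrays (adjusted p = 0.0531) and when knockout CT0 replicate 1 or 2, CT12 replicate 1 or CT18 replicate 1 was left out (adjusted p = 0.0506 to 0.0910).

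The genotype difference of Per3 was negative at all 4 times, at -0.14 ± 0.16 at CT0, -0.40 ± 0.16 at CT6, -0.34 ± 0.16 at CT12 and -0.19 ± 0.16 at CT18 on the log2 scale, and 0 of these passed (limma adjusted p = 0.891 to 1). Single arrays left out moved them over -0.222 to -0.075 at CT0, -0.485 to -0.282 at CT6, -0.539 to -0.218 at CT12 and -0.339 to -0.082 at CT18. At CT18 1 gene of all passed (0.00502%), and 0 at the other times, where 1106, 752 and 497 genes had an unadjusted p under 0.05 at CT0, CT6 and CT12. For 9 of 12 knockout arrays Per3 was under the control mean at their time. The arrays of a time share that control mean, and the share over all genes was not counted. Such counts are therefore description only, here and for the other genes. The mean difference was -0.27 ± 0.08 (unadjusted p = 0.00358, limma adjusted p = 0.476). On the 20 arrays it was -0.39 ± 0.07 (limma adjusted p = 0.00867), with 139 of all genes under the threshold. The 4 arrays left out were picked by genes that differ with genotype, so this p does not test the difference. Ordered by mean, the groups ran from control CT12 (8.13) through knockout CT12, control CT6, knockout CT6, control CT18, knockout CT18 and control CT0 to knockout CT0 (6.66). The only neighbours whose arrays did not overlap were control and knockout CT6. How many of all genes have gaps between groups sorted by their own means was not counted, here or for the other genes.

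Per2, a core repressor of the loop that also limits adipocyte differentiation in cell culture, had a smaller range over the day than Per3, and its mean at CT18 exceeded that at CT6 in both genotypes, where Per3 had the reverse. At CT0 it read 6.60, 6.80 and 6.99 in knockout fat, against 6.78, 6.73 and 6.65 in control fat. At CT6 it read 6.96, 7.07 and 7.14 in knockout fat, against 6.92, 6.85 and 7.08 in control fat. The groups overlapped at both times. At CT12 Per2 read 7.38, 7.56 and 7.33 in knockout fat, against 7.11, 7.29 and 7.45 in control fat. At CT18 it read 7.09, 7.11 and 7.11 in knockout fat, against 7.38, 7.07 and 7.23 in control fat. Here too the arrays overlapped, although every knockout array lay above the control mean at CT6 and CT12 and below it at CT18.

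From CT0 to CT12 Per2 rose by 0.63 ± 0.10 in knockout fat (1.54-fold, limma adjusted p = 0.0166), and in control fat the difference was 0.56 ± 0.10 (1.48-fold, limma adjusted p = 0.0534), just short of the threshold. For this pair of times 2 of the 5 genes, Per2 and Per3, rose in knockout fat, where 0.0752% of all genes rose, and 1 of the 5, Per3, rose in control fat, where 0.0301% rose. The 2 changes of Per2 differed by 0.06 ± 0.15 (limma adjusted p = 1). The knockout call was lost on the 20 arrays (adjusted p = 0.0761) and without knockout CT0 replicate 1 or 2 or CT12 replicate 1 or 2 (adjusted p = 0.0633 to 0.120). The control difference passed when 1 of 6 arrays was left out (knockout CT0 replicate 1 or 3, knockout CT12 replicate 2, control CT12 replicate 1, control CT18 replicate 1 or 2), with adjusted p = 0.0270 to 0.0480. Of these only control CT12 replicate 1 belongs to the groups compared, and without it the difference was 0.65. Without any of the others it stayed at 0.56, and only the spread shared by all groups and the adjustment moved. Over all 4 times the F test gave adjusted p = 0.0658 in knockout fat and 0.0787 in control fat. It passed in knockout fat without knockout CT0 replicate 3 or CT18 replicate 2 (adjusted p = 0.0266 and 0.0468) and in control fat without control CT12 replicate 1 or CT18 replicate 2 (adjusted p = 0.0368 and 0.0495).

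The mean genotype difference of Per2 was 0.05 ± 0.05 (limma adjusted p = 0.970), with 8 of 12 knockout arrays above the control mean of their time and 4 below it. The differences at single times lay between -0.12 ± 0.11 at CT18 and 0.14 ± 0.11 at CT12, and 0 of the 4 passed. With single arrays left out they ranged over -0.203 to -0.046 at CT18 and 0.053 to 0.223 at CT12. From knockout CT12 (7.42) to control CT0 (6.72), all neighbours in the order of group means overlapped.

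Per1, the Period gene that responds fastest to outside signals, including glucocorticoids, moved over a smaller range. At CT0 it read 7.19, 7.38 and 7.70 in knockout fat, against 7.68, 7.66 and 7.81 in control fat. At CT6 it read 7.85, 7.83 and 8.01 in knockout fat, against 8.09, 7.99 and 8.08 in control fat. Only 1 knockout array reached into the control range at each of these times. At CT12 Per1 read 8.0, 7.94 and 7.75 in knockout fat, against 7.83, 8.13 and 8.05 in control fat. At CT18 it read 7.68, 7.83 and 7.82 in knockout fat, against 8.29, 7.67 and 7.71 in control fat. Both later times overlapped, and control CT18 replicate 1 stood above every other array of the 24.

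The mean genotype difference of Per1 was -0.17 ± 0.07 (unadjusted p = 0.0236, limma adjusted p = 0.725), which did not pass. For 11 of 12 knockout arrays Per1 was under the control mean at their time, a count not set against all genes. The difference ran from -0.30 ± 0.14 at CT0 to -0.10 ± 0.14 at CT12, with ranges of -0.433 to -0.180 and -0.191 to -0.030 when single arrays were left out. At CT18 it was -0.11 ± 0.14 with all arrays and 0.09 ± 0.12 without control CT18 replicate 1. On the 20 arrays the mean difference was -0.23 ± 0.08 (limma adjusted p = 0.271). Over time Per1 did not pass in knockout fat (F test, limma adjusted p = 0.224) or in control fat (adjusted p = 0.884). Its CT12 level exceeded its CT0 level by 0.47 ± 0.14 in knockout fat (adjusted p = 0.214) and by 0.28 ± 0.14 in control fat (adjusted p = 1). All neighbouring groups overlapped, from control CT6 (8.05) at the top to knockout CT0 (7.42) at the bottom.

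Of 11 measured glucocorticoid-responsive genes, 10 also had a negative mean genotype difference and 1 a positive one, with a median of -0.21 against 0.001 over all genes, and 0 of the 11 passed. Dusp1, a phosphatase that limits MAP kinases, differed by -0.32 ± 0.07 (limma adjusted p = 0.182), the metallothionein Mt2 by -0.41 ± 0.14 (adjusted p = 0.614) and Fkbp5, a co-chaperone of the glucocorticoid receptor, by -0.39 ± 0.16 (adjusted p = 0.719). The average of these 11 genes was 8.21 to 8.93 (median 8.52) on the knockout arrays and 8.52 to 9.09 (median 8.70) on the control arrays. It was highest on control CT18 replicate 1, where Per1 was highest as well. For endothelial markers 8 of 8 differences were negative (median -0.17) and 0 passed, with averages of 8.07 to 8.77 on knockout arrays and 8.30 to 8.78 on control arrays. For lymphocyte markers 7 of 7 were negative (median -0.12), with averages of 5.96 to 6.87 on knockout arrays and 6.00 to 7.27 on control arrays. Their part in the Per1, Per3 and Cry1 differences was not tested.

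Cry1, the cryptochrome that delays and strengthens repression, had the smallest p for genotype among the 5 genes. At CT0 it read 7.64, 7.53 and 7.69 in knockout fat, against 7.14, 7.54 and 7.40 in control fat. At CT6 it read 7.43, 7.49 and 7.35 in knockout fat, against 6.82, 6.84 and 6.94 in control fat. The control arrays of CT6 were the lowest 3 of the 24, and every knockout array at that time lay above them, as it did for 5.01% of all genes. At CT12 Cry1 read 7.14, 7.60 and 7.65 in knockout fat, against 7.45, 7.08 and 7.45 in control fat. At CT18 it read 7.76, 7.77 and 7.53 in knockout fat, against 7.66, 7.42 and 7.75 in control fat. The groups overlapped at both of these times, with the lowest knockout values again on CT12 replicate 1 and CT18 replicate 3.

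At CT6 the genotype difference of Cry1 was 0.56 ± 0.13 (1.47-fold, unadjusted p = 0.000336). That was the second smallest p of all 19938 genes at this time, yet after adjustment it was 1, and 0 genes passed by limma. At the other times the difference was 0.26 ± 0.13 at CT0, 0.14 ± 0.13 at CT12 and 0.08 ± 0.13 at CT18. With single arrays left out these ranged from 0.149 (without control CT0 replicate 1) to 0.346 at CT0, from 0.013 (without control CT12 replicate 2) to 0.297 (without knockout CT12 replicate 1) at CT12 and from -0.017 (without control CT18 replicate 2) to 0.156 at CT18. The mean over the day was 0.26 ± 0.06 (unadjusted p = 0.000719, limma adjusted p = 0.251), with 10 of 12 knockout arrays above the control mean of their time. It was 0.30 ± 0.06 without knockout CT12 replicate 1 (limma adjusted p = 0.0389), where 30 of all genes were under the threshold. On the 20 arrays it was 0.35 ± 0.06 (limma adjusted p = 0.00638), with 139 of all genes under the threshold. That replicate belongs to the 4 arrays picked by genes that differ with genotype, so neither p tests the difference.

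Between CT6 and CT18 the change of Cry1 was 0.26 ± 0.13 in knockout fat (limma adjusted p = 0.430), which did not pass, and in control fat it rose by 0.74 ± 0.13 (1.67-fold, limma adjusted p = 0.0230). Over this interval 0 of the 5 genes passed in knockout fat, where 0.0201% of all genes did, and 1 of the 5, Cry1, rose in control fat, where 0.015% rose. Macrophage markers were negative over this interval for 7 of 8 genes in knockout fat (median -0.36) and positive for 6 of 8 in control fat (median 0.15), smooth muscle markers were negative for 5 of 6 (median -0.46) and 4 of 6 (median -0.04), 0 of them passed, and their part in the Cry1 values was not tested. The control call was lost when any 1 of the 3 control CT6 arrays or control CT18 replicate 1 or 3 was left out (adjusted p = 0.0901 to 0.217). The change from CT6 to CT18 was smaller in knockout fat by 0.48 ± 0.18 (unadjusted p = 0.0169), with an adjusted p of 1 by limma. Over all 4 times the genotype by time interaction of Cry1 gave F = 2.67 (unadjusted p = 0.0735, limma adjusted p = 1). No interaction passed for any of the 5 genes or for any of all 19938 by limma (595 had an unadjusted p under 0.05), so a difference between the genotypes in the daily range of Cry1 was not established. Over the 4 times Cry1 did not pass the F test in knockout fat (limma adjusted p = 0.519) or in control fat (adjusted p = 0.109, or 0.0344 without knockout CT12 replicate 1). That array lies outside the control groups, so leaving it out moves only the spread shared by all groups and the adjustment. Ordered by mean, the groups ran from knockout CT18 (7.69) to control CT6 (6.87). The only neighbours without overlap were control CT12 and control CT6, a gap not set against all genes.

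**Figure D2:**
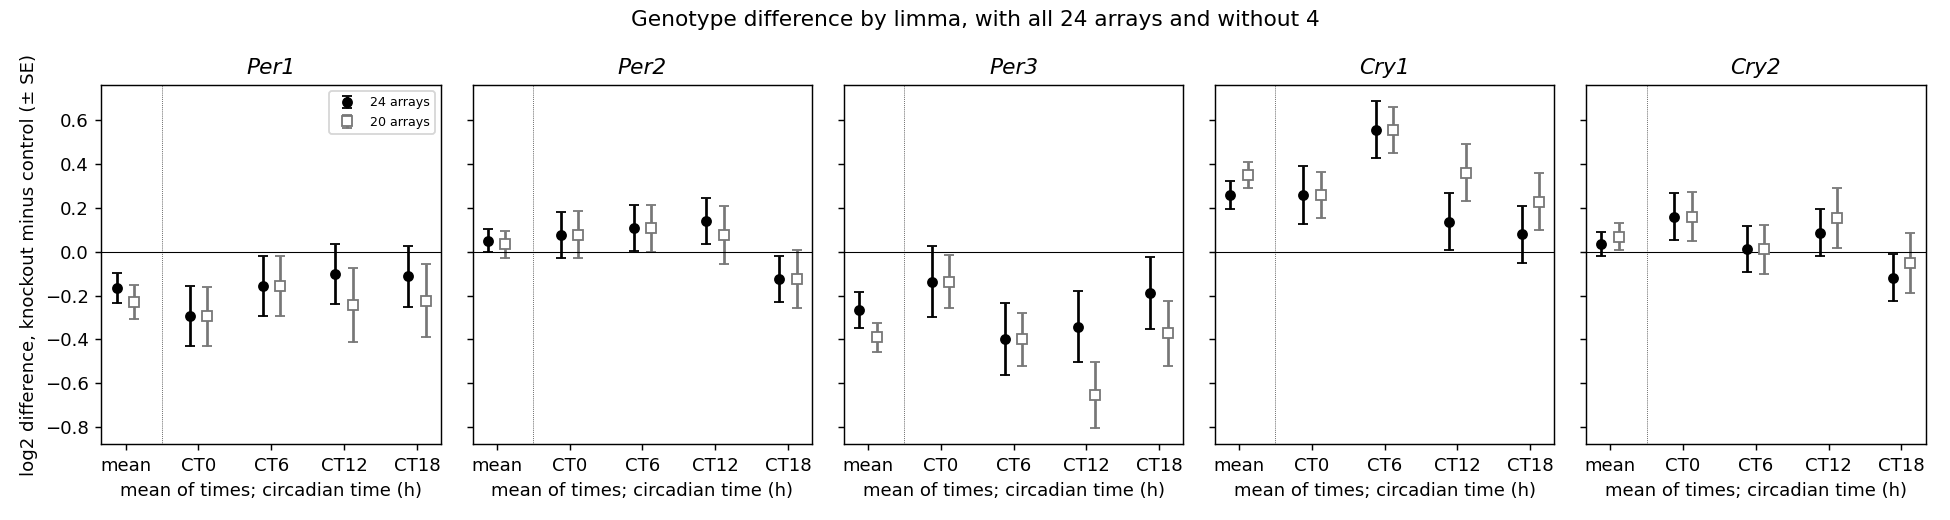
Log2 difference, knockout minus control, with its SE from limma for each gene, as the mean of the 4 times and at each circadian time (h), with all 24 arrays and with the 20 left after removing 4. Cry1 lies above 0 throughout and Per3 below 0 throughout, and their mean differences move to 0.35 and -0.39 on the 20 arrays. The 4 arrays were picked by genes that differ with genotype, so this widening does not test the differences.

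Cry2, the second cryptochrome, had the smallest differences between its groups. At CT0 it read 6.71, 6.36 and 6.73 in knockout fat, against 6.42, 6.44 and 6.45 in control fat. At CT6 it read 6.59, 6.60 and 6.65 in knockout fat, against 6.63, 6.50 and 6.68 in control fat. Knockout CT0 replicate 2, the array with the high epithelial and low adipocyte averages, was the lowest of all 24. At CT12 Cry2 read 6.66, 6.87 and 6.73 in knockout fat, against 6.70, 6.60 and 6.69 in control fat. At CT18 it read 6.62, 6.59 and 6.46 in knockout fat, against 6.90, 6.40 and 6.72 in control fat. Genotypes overlapped at all 4 times, and the highest array of all was again control CT18 replicate 1.

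The mean genotype difference of Cry2 was 0.04 ± 0.05 (limma adjusted p = 0.979), with 5 of 12 knockout arrays above the control mean of their time. Differences at single times lay between -0.12 ± 0.11 at CT18 and 0.16 ± 0.11 at CT0, and 0 of the 4 passed. The CT0 value ranged from 0.096 (without knockout CT0 replicate 3) to 0.279 (without knockout CT0 replicate 2), and the CT18 value from -0.254 (without control CT18 replicate 2) to -0.003 (without control CT18 replicate 1). Time did not pass in knockout fat (F test, limma adjusted p = 0.643) or in control fat (adjusted p = 0.895). The group means spanned 6.75 (knockout CT12) to 6.44 (control CT0). Only the lowest neighbours, knockout CT18 and control CT0, did not overlap, a gap not set against all genes.

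A 24 h cosine through the 4 group means summarises height and phase as a description, since 4 times cannot separate a rhythm from other change over the day. Per3 had an amplitude of 0.57 in knockout fat and 0.70 in control fat on the log2 scale. With 1 array left out at a time these ranged over 0.48 to 0.64 and 0.65 to 0.75. Cry1 had 0.15 in knockout fat and 0.37 in control fat, with ranges of 0.13 to 0.19 and 0.34 to 0.42. These ranges show how far 1 array moves the fit and are narrower than its sampling spread, so they do not test a difference in amplitude. The interaction F test gave limma adjusted p = 1 for both genes. Per2 stood at 0.32 in knockout fat and 0.31 in control fat, Per1 at 0.24 and 0.16, and Cry2 at 0.08 and 0.12.

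The fitted peak of Per3 fell at 11.3 h in knockout fat and 10.9 h in control fat, and that of Per1 at 11.1 h and 10.0 h. With single arrays left out, Per1 ranged over 10.8 to 11.5 h in knockout fat and 8.53 to 11.3 h in control fat. Per2 peaked at 12.3 h in knockout fat and 13.7 h in control fat, with ranges of 12.0 to 12.5 h and 13.3 to 14.1 h when single arrays were left out. Cry1 peaked at 20 h in knockout fat and 18.2 h in control fat, with ranges of 17.9 to 20.9 h and 17.5 to 18.7 h. These ranges too are narrower than the sampling spread, so they do not test a difference in phase between genotypes. For Per2 the genotype by time interaction gave F = 1.28 (limma unadjusted p = 0.309) and did not pass. As a description of the means, the fitted peaks lay around subjective dusk for the Period genes and in the subjective night for Cry1. The highest Per1 mean in control fat was at CT6, before its fitted peak. Only Per3 passed the F test for time, so the peaks of the other genes do not establish a phase.

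**Figure D3:**
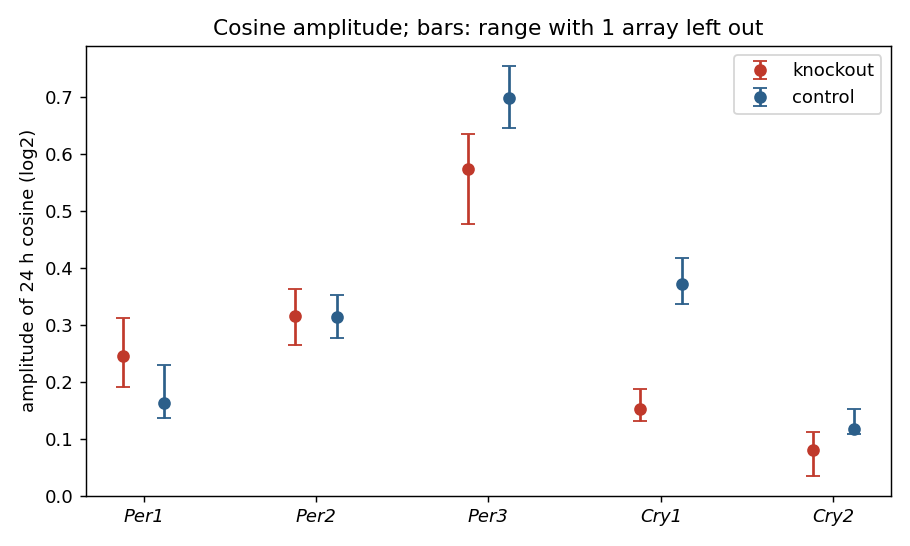
Amplitude of the 24 h cosine (log2) for each gene, knockout to the left of control, where bars through the points give the range with 1 array left out at a time. Cry1 is at 0.15 in knockout and 0.37 in control fat, Per3 at 0.57 and 0.70, and Per2 at nearly the same height in both.

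Genes whose levels ran most like each of the 5 were found by Pearson's r over the 24 arrays, which share genotype and time. Predicted, clone-based and microRNA gene names were left out of the ranking. Per3 ran most like Tef (r = 0.91) and Hlf (r = 0.90), which encode D-box activators, and R3hcc1l (r = 0.87), and most opposite to Arntl (r = -0.90). Per1 ran most like Klf9 (r = 0.89), a transcription factor gene induced by glucocorticoids, followed by Dclre1b (r = 0.84) and Tcim (r = 0.83). For Per1 the lowest was Col3a1, a collagen gene (r = -0.72). Per2 was closest to Wee1, a clock-controlled kinase of the cell cycle (r = 0.84), Cys1 (r = 0.84) and Rexo5 (r = 0.76). Its lowest was Arhgap20 (r = -0.73).

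Cry1 ran most like Nfil3, the D-box repressor (r = 0.80), the chaperone gene Hsph1 (r = 0.79) and Leo1 (r = 0.75), and most opposite to St3gal6 (r = -0.78) and Nr1d1, the gene of the repressor REV-ERB alpha (r = -0.77). Cry2 was closest to Cblb (r = 0.80), Fbh1 (r = 0.79) and Ctsf (r = 0.78), and farthest from Arsj (r = -0.74). Among the 5 genes themselves, Per1 and Per3 had r = 0.74, Per2 and Per3 r = 0.70 and Per1 and Per2 r = 0.60. Cry1 and Cry2 had r = 0.24. Per3 against Cry1 gave r = -0.47.

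Of the 5 measured clock activators and nuclear receptors, Nr1d1 was lower in knockout fat, by 0.48 ± 0.08 (limma adjusted p = 0.0438), and the other 4 did not pass for the mean genotype difference. Quantile normalisation, all named probe sets, the trended robust prior and the replicate block each left 0 genes past the threshold for this difference, Nr1d1 included. Clock differed by 0.17 ± 0.07 (adjusted p = 0.748) and Nr1d2, encoding REV-ERB beta, by -0.31 ± 0.08 (adjusted p = 0.328). Over time Arntl did not pass in knockout fat (F test, limma adjusted p = 0.149) and changed in control fat (adjusted p = 5.38e-05). Nr1d1 and Nr1d2 changed over time in both genotypes. Of the 7 clock outputs, 0 passed by genotype, and Nfil3 had the largest difference, 0.47 ± 0.13 (adjusted p = 0.335). Dbp and Hlf, 2 of these 7, changed over time in both genotypes. From CT0 to CT12 Dbp rose by 0.90 ± 0.16 in knockout fat and by 1.21 ± 0.16 in control fat (limma adjusted p = 0.0236 and 0.00149). None of these 12 genes passed the interaction test by limma.

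**Figure D4:**
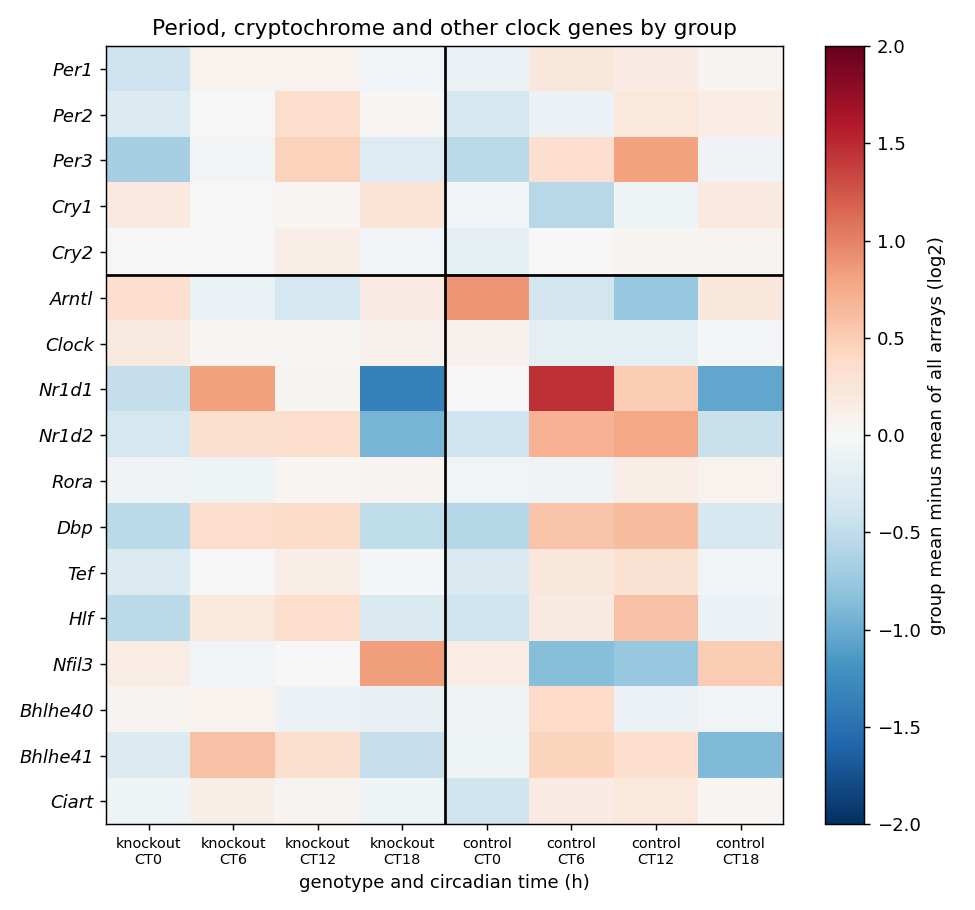
Group means of the Period, cryptochrome and other clock genes, each centred on its mean over all arrays (log2), by genotype and circadian time (h), with knockout columns left of control columns. Per3 runs from 6.66 at CT0 to 7.79 at CT12 in knockout fat, and Arntl is highest at CT0 and lowest at CT12 in both genotypes.

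Partners of the PER and CRY proteins showed no change that passed. Of 30 genes listed, which include the casein kinases, ubiquitin ligase parts and corepressors that act on these proteins, 26 were measured, and 0 passed for the mean genotype difference, for time in either genotype or for the interaction. Their mean genotype differences were positive for 13 and negative for 13, with a median of -0.00 against 0.001 over all genes. The smallest p belonged to Csnk1e, encoding casein kinase 1 epsilon, which marks PER proteins for degradation, at -0.11 ± 0.04 (limma adjusted p = 0.634). Timeless differed by -0.12 ± 0.06 (adjusted p = 0.811), Csnk1d by -0.07 ± 0.04 (adjusted p = 0.850) and the corepressor Sin3a by -0.08 ± 0.05 (adjusted p = 0.903).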

How the data were processed

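The 24 arrays were hybridised with cDNA amplified from 50 ng of total RNA, per the labels' protocols. The deposited table holds log2 values that the authors made with RMA, per the submitters' processing notes. Its version is not given in the sources used here. Values were used as deposited. Of 35556 probe sets, 21789 had 1 gene symbol in the platform annotation, 1621 several and 12146 none here, and 21698 matched the RefSeq gene table (GRCm38.p6) by Entrez number. A gene with several probe sets (999 genes) took the one with the highest mean, which gave 19938 genes. A model of the 8 groups was fitted in R 4.3.3 by lmFit and eBayes of limma 3.58.1, using every array (16 residual and 5.03 prior degrees of freedom), with Benjamini-Hochberg adjustment over all genes and a threshold of 0.05. Cosines, correlations and motif counts were computed in Python 3.11.15. The fit was tested on simulated data. Precision is limited by the number of arrays, 3 per group. The 5 genes, the lists, the tests and the 4 arrays left out were chosen with earlier results of these data known. Named besides the 5 genes were Arntl, measured genes of both clock lists, up to 4 genes with the smallest p of the partner and glucocorticoid lists, and the 3 genes most and 2 least correlated with each of the 5. The correlated genes were picked after predicted, clone-based and microRNA names had been left out. Alternatives were quantile normalisation, dim genes left out, all named probe sets, a trended robust prior, a replicate block, each array left out in turn and the 4 arrays left out. The genotype difference in each pair of opposite times was added as a single contrast after the data were seen. Replicate numbers were not treated as pairs in the main fit. Of 12 same-numbered pairs, 5 had correlated deviations above 0.1 (range -0.37 to 0.374). These correlations were 0.189, 0.374 and 0.327 at CT0 and -0.37, -0.029 and -0.287 at CT12. Whether the numbers mark pairs at single times was not tested.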

Additional observations from a re-analysis of the deposited data

Results flagged for a closer look

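The genotype difference of Per2 did not keep its sign over the 4 times. It was 0.106 at CT6 and 0.14 at CT12, with every knockout array above the control mean at both times, and -0.124 at CT18, with every knockout array below it. How many of all genes have such a pattern was not counted. Each difference had an SE of 0.105. The change in sign between CT6 and CT18 was -0.23 ± 0.15 and did not pass (limma adjusted p = 1), and neither did the interaction over all times (limma adjusted p = 1). The difference between CT12 and CT18 was not tested as a pair.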

How the results depend on the processing

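For the mean genotype difference, 4 genes passed, against 0 with quantile normalisation, all named probe sets, the trended robust prior or the replicate block, 9 with dim genes left out, 139 without the 4 arrays and 0 to 30 with single arrays left out (most without knockout CT12 replicate 1); of the 5 clock repressor genes 0 passed, against 2 without the 4 arrays and 0 to 1 with single arrays out. Genes called without the 4 arrays numbered 6 at CT0, 1 at CT6 and 10 at CT12, each against 0. At CT18 it was 0 against 1, as with quantile normalisation, dim genes left out and the replicate block. The 4 arrays were picked by genes that differ with genotype, so genotype counts without them are description only. With single arrays out the ranges were 0 to 3 at CT0 and 0 to 5 at CT18. Time in knockout fat called 14 genes, against 23 (quantile), 32 (dim genes out), 4 (without the 4 arrays) and 4 to 74 (single arrays, without knockout CT0 replicate 1 and CT18 replicate 2); of the 5, 1 passed, against 2 (dim genes out), 0 (without the 4) and 0 to 2. Time in control fat called 12, against 24 without the 4 arrays and 9 to 25, and 1 of the 5, against 2 with dim genes out and 1 to 2. The interaction called 0, or 0 to 1 with single arrays out. CT12 minus CT0 called 19 in knockout fat, against 3 without the 4 arrays and 0 to 63 (without knockout CT0 replicate 1 and 3), and 2 of the 5, against 1 and 0 to 2. In control fat it called 8, against 5 (quantile), 17 (without the 4) and 3 to 13, and 1 of the 5, against 2 with dim genes out or the trended robust prior and 1 to 2. CT18 minus CT6 called 4 in knockout fat, against 13 (quantile), 14 (dim genes out) and 3 to 115 (without knockout CT18 replicate 2). In control fat it called 12, or 4 to 23 (without control CT18 replicate 3 and knockout CT0 replicate 2), and 1 of the 5, or 0 to 1. Single arrays left out turned the sign of Per2 at CT0 (-0.022 to 0.175), Cry2 at CT6 (-0.040 to 0.047), Per1 at CT18 (-0.224 to 0.086), Cry1 at CT18 (-0.017 to 0.156), Cry1 CT12 minus CT0 in knockout (-0.248 to 0.005) and control fat (-0.144 to 0.089), Per2 CT18 minus CT6 in knockout fat (-0.005 to 0.087) and Cry2 CT18 minus CT6 in control fat (-0.046 to 0.205). They also turned the genotype difference in CT12 minus CT0 of Per2 (-0.035 to 0.162) and Cry1 (-0.245 to 0.039) and that in CT18 minus CT6 of Per1 (-0.068 to 0.242). Without the 4 arrays these 3 were -0.001, 0.102 and -0.068, and Cry1 CT12 minus CT0 in knockout fat was 0.005. The causes were not tested, other than that dropping dim genes tests fewer genes. The replicate block changed no call of the 5 genes; with it the mean genotype difference of Cry1 had adjusted p = 0.541 and that of Per3 0.634.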
